A study of Homo sapiens with 18 samples.

Results

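Newly made nuclear RNA was compared between MDA-MB-453 cells that had received the BET degrader JQ1-VHL for 3 h and cells that had received DMSO for 3 h. The comparison used the 6 nuclear libraries of the 18 in the study, 3 JQ1-VHL and 3 DMSO. MDA-MB-453 is an established breast cancer line of luminal type. The sample titles call the drug dBET and the series description calls it JQ1-VHL. In every group the cells also took up 0.1 mM 4-thiouridine for the last 60 min. Drosophila S2 cells were mixed in by cell number before the cells were opened, in all groups. The nuclei were the pellet left after permeabilisation with 1 mg/ml digitonin. Of the 12755 genes in the table, 10191 had a mean of at least 10 units over the 18 libraries and were tested, and these held 99.8% of the summed value.

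The BET proteins, among them BRD2 and BRD3, bind acetylated histones through their bromodomains and help RNA polymerase II to leave promoters and elongate. JQ1 occupies those bromodomains, and joining it to a ligand of the ubiquitin ligase VHL directs the bound BET proteins to the proteasome. In luminal breast cells, large clusters of enhancers with much BET protein lie near genes for lineage factors. 4-thiouridine that a cell builds into RNA is read as C in place of T after treatment with iodoacetamide. Reads with such changes therefore mark RNA made during the labelling, and in the nuclear pellet they mark such RNA that stayed with the pellet. Whether all of it was inside nuclei was not measured.

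A value here is the number of T-to-C reads of a gene, summed over its intervals and scaled per library by ERCC spike-in RNA, and is called units. ERCC RNA was added by RNA mass after extraction, so the unit is new RNA per mass of nuclear RNA and not per cell. A change in the mass of RNA per nucleus or in the number of nuclei is not seen on this scale. Changes are given in 2 ways. "ERCC scale" is the log2 difference of the units plus 1. "Relative" is the same difference after each library was divided by a factor of its typical gene, so that it shows how a gene moved against the rest. Tests were limma with Benjamini-Hochberg adjustment over all 10191 genes at 0.05, and log2 changes are JQ1-VHL minus DMSO with their SE. Whether replicates came from separate cultures is not in the labels, and the p-values cover just the spread among these libraries, which may be technical.

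The JQ1-VHL libraries held 2.88, 3.15 and 1.58 M recovered T-to-C reads and the DMSO libraries 5.93, 4.55 and 4.95 M. JQ1-VHL replicate 3 stood apart, with 30.5% of intervals at 0, against 8.76 to 10.2% in the other JQ1-VHL libraries and 1.06 to 1.93% in DMSO. Sequencing depth before the selection of T-to-C reads is not known. All 10 luminal marker genes used to check the cell type were in the table, with 5870 to 10201 summed units under JQ1-VHL and 14534 to 24327 under DMSO. Of 10 basal markers 3 were present, of 10 fibroblast markers 1, of 8 endothelial markers 0, and of 10 leukocyte markers 1, with 0 to 4 reads per library.

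Most genes had less new nuclear RNA under JQ1-VHL. On the ERCC scale 9948 genes lay below 0 and 243 above. The summed values were 1.53, 2.04 and 0.753 M units under JQ1-VHL, against 4.86, 2.55 and 2.33 M under DMSO, and the groups did not overlap. That is 0.444 of the DMSO mean (exact two-sided permutation p = 0.1, the smallest that 3 against 3 can give). What was left was shared among fewer genes. The 100 genes with most reads took 23.7, 22.9 and 29.5% of the reads under JQ1-VHL and 13.3, 16.2 and 16.6% under DMSO (exact permutation p = 0.1). Genes with at least 10 reads numbered 10094, 10287 and 7624 under JQ1-VHL and 11629, 11179 and 11238 under DMSO, while the JQ1-VHL libraries also held fewer reads in all.

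**Figure D1:**
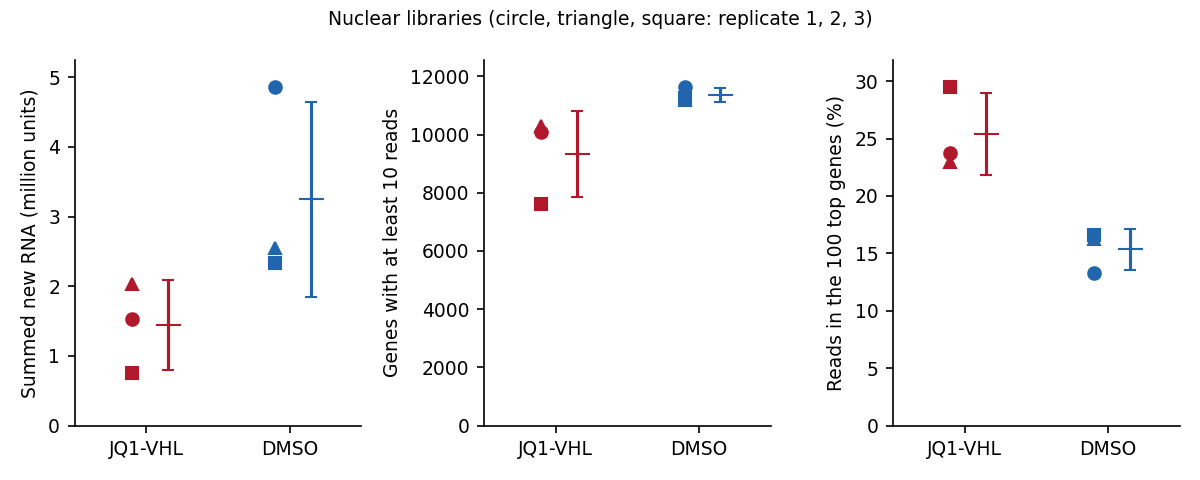
Summed new RNA in M units, genes with at least 10 reads, and the percent of reads in the 100 genes with most, for the 3 JQ1-VHL and 3 DMSO nuclear libraries; the cross and bar are mean and SD. The JQ1-VHL libraries lie below the DMSO libraries in the first panels, with sums of 0.753 to 2.04 M units against 2.33 to 4.86 M, and above them in the last.

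On the ERCC scale limma called 18 genes higher (0.177% of those tested) and 3435 lower (33.7%), with 5014 at an unadjusted p under 0.05. Relative to the typical gene it called 1602 higher (15.7%) and 1765 lower (17.3%), with 4895 at an unadjusted p under 0.05. The median gene stood at -1.82 on the ERCC scale and at -0.11 on the relative one. All 18 genes higher on the ERCC scale were also higher on the relative scale, and 1763 genes were lower on both. A further 1584 genes were higher on the relative scale only. The same-numbered pairs differed in depth of the fall, with median log2 changes of -2.23, -0.72 and -2.42. The falls also reached further than the rises: on the relative scale 646 called genes fell by at least 2 log2 units and 150 rose by as much. These counts rest on single libraries. The ERCC-scale count was 239 without JQ1-VHL replicate 3, 308 without DMSO replicate 1 and 2236 without DMSO replicate 2. The relative count was 5186 without JQ1-VHL replicate 3 and 1090, 709 and 967 without DMSO replicates 1, 2 and 3. On the relative scale 354 higher and 310 lower genes were called whichever nuclear library was left out, and on the ERCC scale 3 and 182. A gene is described below as kept in every fit where that held for it on the relative scale.

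The lowest relative change was that of EDN2. This gene, which encodes the vasoactive peptide endothelin 2 (GRCh38 chromosome 1, 41478775 to 41484673, minus strand, GENCODE 29), had 1.6, 4.52 and 0 units under JQ1-VHL, against 355, 218 and 181 under DMSO. Its relative change was -5.62 ± 0.63 (adjusted p = 0.0032). IGFBP3, a secreted binder of insulin-like growth factors (chromosome 7, 45912245 to 45921874, minus strand), had 1.06, 1.94 and 0.95 units under JQ1-VHL and 388, 130 and 106 under DMSO, a relative change of -4.84 ± 0.40 (adjusted p = 0.0012). The JQ1-VHL values of both genes were at a few units in every library and far from the DMSO values. PDE4B, which degrades cyclic AMP, had 3.19, 0.646 and 0 units under JQ1-VHL and 211, 76.3 and 79.0 under DMSO. TOX3, an HMG-box factor of luminal breast, had 0.532, 1.29 and 0 units under JQ1-VHL and 92.5, 43.8 and 53.1 under DMSO. The long noncoding RNA SILC1 (-5.23), OAF (-4.51), NIPSNAP3A (-4.52), LACC1 (-4.36, overlapping CCDC122) and FAM98C (-4.75, overlapping RASGRP4) also stood at single digits under JQ1-VHL. All 9 were kept in every fit. The nucleotide receptor gene P2RY6 (-4.62), SEMA4C (-4.40), the tropomyosin gene TPM1 (-4.37) and INSIG2 (-4.37), a brake on sterol synthesis, were each called with all libraries. They were not called when any one of DMSO replicates 1, 2 and 3 was left out, with adjusted p of up to 0.0612, 0.0598, 0.0633 and 0.0707.

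Some genes lost all reads. Of the 12755 genes in the table, 87 had 0 reads in the 3 JQ1-VHL libraries together although DMSO held at least 30. In the other direction 12 genes had 0 reads in DMSO with at least 30 under JQ1-VHL. The JQ1-VHL libraries held a mean of 2.54 M recovered reads and the DMSO libraries 5.14 M. A count of 0 is reached more readily with fewer reads, and the part of this in the counts was not tested. RCAN1, an inhibitor of calcineurin, had 0 reads under JQ1-VHL and 88.4, 28.1 and 17.9 units under DMSO. Its mean DMSO level was 27.1 times the mean of a floor of 3 counts in each JQ1-VHL library. The floor covers counting error only, and the spread among the DMSO libraries is not covered. Such ratios are on the ERCC scale, where the median gene stood at -1.82. PIP, the prolactin-induced protein of apocrine secretion, had 0 reads under JQ1-VHL and 61.4, 17.96 and 23.04 units under DMSO. Its DMSO mean was 20.7 times the floor. For ALKBH8, a methyltransferase of transfer RNA, it was 23.8 times the floor and for the zinc finger gene ZBTB47, which overlaps ZBTB47-AS1, 25.3 times. LIN7A, AMIGO2, FBN2, CCDC160, PAX7 and MOSPD3 followed, at 18.7, 17.4, 16.3, 16.2, 14.4 and 13.0 times the floor. AMIGO2 and PAX7 did not pass the filter on low values and were not tested. T-to-C reads per gene are without molecular identifiers and are not independent molecules.

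Transcription factors of luminal and androgen-responsive breast cells fell together. Of 22 tested, 14 were lower (63.6%, against 17.3% of all genes) and 1 higher relative to the typical gene. On the ERCC scale 16 were lower (72.7%, against 33.7%). Their median relative change was -1.34, against -0.11 for all genes, and -1.44, -1.25 and -1.66 in the same-numbered pairs. The count of 14 was 8 without DMSO replicate 2. SPDEF, an ETS factor of secretory epithelium, had 36.2, 57.5 and 7.60 units under JQ1-VHL, against 3068, 1544 and 1226 under DMSO (relative -4.37 ± 0.27, adjusted p = 0.00047). TFAP2B, an AP-2 factor (chromosome 6, 50818723 to 50847613), had 43.1, 44.6 and 7.60 units under JQ1-VHL and 2088, 903 and 751 under DMSO (-3.73 ± 0.28, adjusted p = 0.00083). In both genes every JQ1-VHL value lay far below every DMSO value, and both were kept in every fit. FOXA1, a pioneer factor that opens chromatin for steroid receptors and whose gene overlaps TTC6, had 22.3, 42.6 and 1.90 units under JQ1-VHL and 735, 385 and 379 under DMSO (-3.44 ± 0.57). GATA3 fell by less, with 527, 701 and 143 units under JQ1-VHL and 4717, 2293 and 1963 under DMSO (-1.12 ± 0.19, adjusted p = 0.0079). It was not called without DMSO replicate 2 (adjusted p = 0.0505).

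Other factors of the list that were kept in every fit were TBX3 (-2.25), GRHL1 (-2.51), CREB3L4 (-1.87) and TFAP2A (-1.47). VDR, the vitamin D receptor gene, was the 1 member called higher, at 0.70, a call lost without JQ1-VHL replicate 1 or any DMSO replicate (adjusted p of up to 0.0867). TRPS1 (-0.30, adjusted p = 0.29), ESRRA (-0.19, adjusted p = 0.45) and RXRA (0.37, adjusted p = 0.30) were not called. The whole list made up 0.177, 0.186 and 0.141% of new nuclear RNA under JQ1-VHL and 0.592, 0.598 and 0.635% under DMSO. Genes that these factors are known to control were more mixed. Of 12 androgen-regulated genes, 4 were lower (33.3%, against 17.3% of all genes) and 1 higher (8.33%, against 15.7%). The protease gene TMPRSS2 at -3.45 and SORD, a polyol enzyme, at -2.14 led the lower genes. FKBP5, the steroid receptor cochaperone, was higher at 0.70. The FKBP5 call was lost without JQ1-VHL replicate 2 or any DMSO replicate (adjusted p of up to 0.13). Of 14 luminal and apocrine differentiation genes, 3 were lower (21.4%, near the share of all genes) and 5 higher (35.7%). ANKRD30A, a breast differentiation antigen, had 29.8, 36.2 and 19.96 units under JQ1-VHL and 1910, 968 and 824 under DMSO. The fatty acid synthase gene FASN had 11748, 14847 and 3491 units under JQ1-VHL and 21187, 10550 and 6779 under DMSO, groups that overlap in units while the relative change was 1.33 ± 0.24 (adjusted p = 0.0092, and 0.0523 without DMSO replicate 3). Of the keratins, KRT18, which overlaps KRT8, was higher at 1.24 and KRT19 was not called (0.19, adjusted p = 0.53).

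The BET genes BRD2 and BRD3 were not called relative to the typical gene. BRD2 had 768, 1025 and 93.1 units under JQ1-VHL and 3500, 1612 and 1313 under DMSO, and overlaps HLA-DMA. Its change was -2.21 ± 0.81 on the ERCC scale and -0.45 ± 0.41 on the relative scale (adjusted p = 0.40). BRD3, which overlaps BRD3OS, stood at -0.79 (adjusted p = 0.26). The drug removes BET protein, which these libraries do not measure. The next list joined P-TEFb and the super elongation complex, which release paused polymerase, with 7SK genes such as HEXIM2, an inhibitor of P-TEFb. Of its 13 genes tested, 6 were lower (46.2%, against 17.3% of all genes) and 0 higher. CCNT2, a cyclin of P-TEFb, stood at -1.86 (adjusted p = 0.012) and HEXIM2 at -2.002 (adjusted p = 0.013). HEXIM2 overlaps HEXIM2-AS1 and CCNT2 overlaps CCNT2-AS1. CCNT2 was not called without DMSO replicate 2 or 3 (adjusted p of up to 0.0602), and HEXIM2 without DMSO replicate 1, 2 or 3 (up to 0.0614). The count of 6 lower was 2, 0 and 1 without DMSO replicates 1, 2 and 3.

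**Figure D2:**
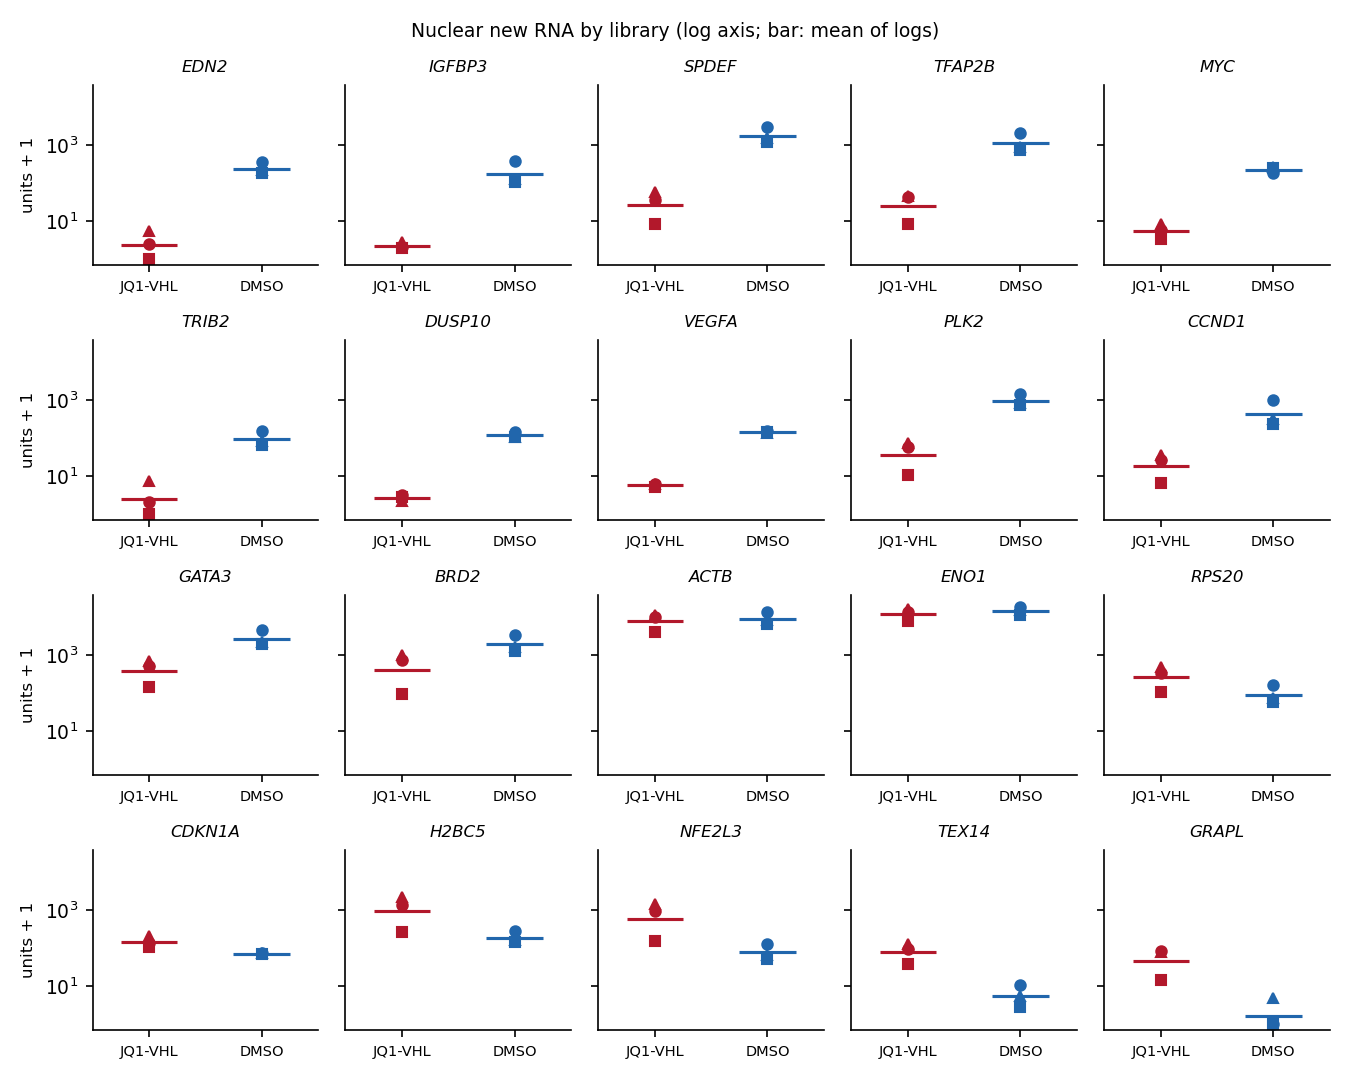
Units plus 1 on a log axis for 20 named genes in the 3 JQ1-VHL and 3 DMSO nuclear libraries (circle, triangle and square are replicates 1, 2 and 3, and the bar is the mean of the logs). SPDEF, TFAP2B and MYC lie far below their DMSO values, ACTB and ENO1 overlap them, and TEX14, NFE2L3 and GRAPL lie above them.

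Inhibitors of MAP kinase signalling, called the ERK list here, formed a second group that fell. Of 17 dual-specificity phosphatase, Sprouty and SPRED genes, 11 were lower (64.7%, against 17.3% of all genes) and 1 higher on the relative scale, with a median of -1.5. On the ERCC scale 14 were lower (82.4%, against 33.7%). DUSP10 had 2.13, 1.29 and 1.90 units under JQ1-VHL and 148, 106 and 108 under DMSO (relative -3.90 ± 0.54, adjusted p = 0.0048). DUSP4 (-3.04), DUSP8 (-1.74) and SPRY1 (-2.57) were also kept in every fit. DUSP5 had 14.9, 5.17 and 0 units under JQ1-VHL and 296, 122 and 129 under DMSO (-4.11 ± 0.99), with adjusted p of up to 0.0707 when a DMSO library was left out. The list's count of 11 lower was 5, 4 and 4 without DMSO replicates 1, 2 and 3. DUSP2, a phosphatase of the same family, was the 1 member called higher at 1.52 ± 0.46, a call that held only without JQ1-VHL replicate 3, with 9.50 to 31.6 units under JQ1-VHL and 8.46 to 67.1 under DMSO.

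Single regulators of growth and the cell cycle fell far. The list of 12 G1 cyclins, CDKs and inhibitors did not stand apart, with 2 lower and 2 higher and a median of -0.11, as for all genes. Of 10 genes of the MYC network 2 were lower (20%, against 17.3% of all genes) and 1 higher (10%, against 15.7%). The median of the MYC network was -0.55, below that of all genes, and -0.55, -0.22 and -0.90 in the same-numbered pairs. MYC, a driver of growth genes, had 4.79, 7.75 and 2.38 units under JQ1-VHL and 181, 264 and 250 under DMSO (-3.76 ± 0.48, adjusted p = 0.0040). CCND1, the cyclin of early G1, which overlaps LTO1, had 26.1, 35.5 and 5.70 units under JQ1-VHL and 1022, 323 and 233 under DMSO (-2.80 ± 0.32, adjusted p = 0.0032). VEGFA, the endothelial growth factor, had 5.32, 5.17 and 4.28 units under JQ1-VHL and 159, 137 and 144 under DMSO (-2.99 ± 0.48). The kinase gene PLK2 (-3.04), the proapoptotic gene BMF (-3.79), the histone methyltransferase gene KMT5B (-3.69), the clock repressor gene BHLHE40 (-2.86, overlapping BHLHE40-AS1) and the Notch pathway gene DTX3 (-3.81) were lower and were kept in every fit. CDKN1A, the p21 inhibitor of cyclin-dependent kinases, had more new RNA in each JQ1-VHL library, 141, 216 and 109 units, than in any DMSO library, 75.3, 72.4 and 68.2. Its change was 1.04 ± 0.91 on the ERCC scale (adjusted p = 0.32) and 2.79 ± 0.40 on the relative scale (adjusted p = 0.0052). Among p53 target genes, a list it belongs to, 5 of 16 were lower (31.3%, against 17.3% of all genes) and CDKN1A was the 1 called higher. The 5 lower were 9 with the replicate block, 3 without JQ1-VHL replicate 1, 8 without JQ1-VHL replicate 3, and 1 and 2 without DMSO replicates 2 and 3. Of 25 MYC target genes of growth, 2 were lower (8%, against 17.3% of all genes) and 6 higher (24%, against 15.7%), with a median of -0.04. These were 6 lower and 7 higher with the replicate block, 5 and 10 without JQ1-VHL replicate 3, and 0 and 3 without DMSO replicate 1 or 2. Without DMSO replicate 3 they were 1 and 3, and without JQ1-VHL replicates 1 and 2 they were 3 and 4, and 3 and 5. SRM, the spermidine synthase gene, was lower at -2.39 (adjusted p of up to 0.087 without a DMSO replicate), and HSPD1, a mitochondrial chaperone gene that overlaps HSPE1, was higher at 1.63.

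A list of amino acid stress and related genes had a median of -1.61, the lowest of the lists with all libraries. The ERK list was lower without JQ1-VHL replicate 1 (-1.88 against -1.52), JQ1-VHL replicate 2 (-1.594 against -1.501) or DMSO replicate 3 (-1.42 against -1.33). Of 20 genes listed under ATF4 and serine synthesis, 11 were lower (55%, against 17.3% of all genes) and 0 higher on the relative scale. On the ERCC scale 16 were lower (80%, against 33.7%). TRIB2, a pseudokinase gene, had 1.06, 6.46 and 0 units under JQ1-VHL and 158, 81.9 and 66.8 under DMSO (-4.28 ± 0.73, adjusted p = 0.0078). PHGDH, the first enzyme of serine synthesis, changed by -2.72 (adjusted p = 0.0087) and the pseudokinase gene TRIB3 by -3.18 (adjusted p = 0.0084), and both were kept in every fit. ATF4 itself was not called (0.72, adjusted p = 0.16), nor were ASNS (0.04, adjusted p = 0.98), MTHFD2 (0.61, adjusted p = 0.42) and SLC7A5 (0.80, adjusted p = 0.51), all known targets of ATF4. The count of 11 lower was 7 without JQ1-VHL replicate 1, and 3 and 4 without DMSO replicates 2 and 3. The summed share of the list overlapped between groups, at 0.175, 0.171 and 0.419% under JQ1-VHL and 0.232, 0.424 and 0.716% under DMSO.

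Mitochondrial and cytosolic ribosomal protein genes moved apart. Of 60 genes for mitochondrial ribosomal proteins, 17 were lower (28.3%, against 17.3% of all genes) and 4 higher, with a median of -0.83. Of 68 for cytosolic ribosomal proteins, 0 were lower and 42 higher (61.8%, against 15.7%), with a median of 1.03. Neither list was set against genes of like level or span. In the quintile of tested genes with the highest level 43.6% were higher, with a median of 0.69. In the shortest quintile by span 25.9% were lower, with a median of -0.64. The median without JQ1-VHL replicate 3 was -0.38 for the mitochondrial list, with 22 lower and 9 higher. For the cytosolic list it was 1.06, with 55 higher and 0 lower. Without DMSO replicates 1, 2 and 3 the mitochondrial list had 5, 3 and 6 lower and the cytosolic list 20, 10 and 16 higher, while the medians stayed between -0.89 and -0.76 and between 0.90 and 1.06. MRPL14, which overlaps TMEM63B, had 6.38, 5.17 and 0.95 units under JQ1-VHL and 125, 52.8 and 48.4 under DMSO (-2.47 ± 0.41). RPL37A had 316, 496 and 107 units under JQ1-VHL and 360, 168 and 113 under DMSO (2.19 ± 0.20), and RPS20 had 338, 495 and 107 under JQ1-VHL and 160, 75.2 and 56.9 under DMSO (3.31 ± 0.19). In units the groups overlapped for both, with ERCC-scale changes of 0.43 and 1.56 that were not called (adjusted p = 0.65 and 0.13). Cytosolic ribosomal protein genes rose in share, to 4.04, 3.71 and 4.04% of new nuclear RNA under JQ1-VHL, against 2.17, 2.69 and 2.69% under DMSO.

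The 10 genes with most reads in the DMSO nuclei were PABPC1, SCD, ALDOA, FASN, RPL4, EEF1D, ENO1, ACTB, HSP90B1 and HSP90AB1. Their ERCC-scale changes ran between -0.51 and -0.11, closer to 0 than the median of -1.07 in the quintile of tested genes with the highest level, and their relative changes between 1.25 and 1.66. ACTB, cytoplasmic actin, had 10131, 11464 and 4214 units under JQ1-VHL and 13567, 8372 and 6879 under DMSO (relative 1.54 ± 0.24, adjusted p = 0.0064). HSP90AB1, a cytosolic chaperone, had 15096, 18744 and 6050 units under JQ1-VHL and 19768, 11720 and 9241 under DMSO (1.66 ± 0.23, adjusted p = 0.0050). ENO1, a glycolytic enzyme that overlaps ENO1-AS1, stood at 1.47 ± 0.33, with an adjusted p of up to 0.064 when a DMSO library was left out. SCD and ALDOA were not called (adjusted p = 0.085 and 0.060). RPL4, which overlaps ZWILCH, and EEF1D, which overlaps TIGD5, were not called without any one DMSO replicate, and PABPC1 without DMSO replicate 2 or 3, with adjusted p of up to 0.0556, 0.0779 and 0.0573. On the ERCC scale the list medians were -0.77 for glycolytic, -0.86 for actin cytoskeleton, -1.16 for hnRNP, -1.19 for cholesterol synthesis and -1.39 for nucleoporin genes. On the relative scale 15.7% of all genes were higher and 17.3% lower, and in the quintile with the highest level 43.6% and 3.93%. The lists were not set against genes of like level. Of 16 glycolytic genes 6 were higher (37.5%) and 1 lower, and of 26 actin cytoskeleton genes 13 (50%) and 2. Of 27 hnRNP genes 12 were higher (44.4%) and 2 lower. Of 23 cholesterol synthesis genes 10 were higher (43.5%) and 0 lower, with IDI1, an isomerase that overlaps IDI2-AS1, at 2.10. Of 30 nucleoporin genes 12 were higher (40%) and 1 lower, and of 36 mitosis genes 10 (27.8%) and 2. Of 38 nuclear speckle and SR protein genes 12 were higher (31.6%) and 3 lower, and of 52 translation factor genes 15 (28.8%) and 3. Without DMSO replicates 1, 2 and 3 the actin count was 5, 3 and 5 higher, the hnRNP count 3, 3 and 4, the cholesterol count 3, 4 and 3, the nucleoporin count 5, 3 and 4 and the glycolytic count 1, 1 and 0. The mitosis count was 3, 1 and 2, the speckle count 3, 2 and 3 and the translation factor count 7, 2 and 5.

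**Figure D3:**
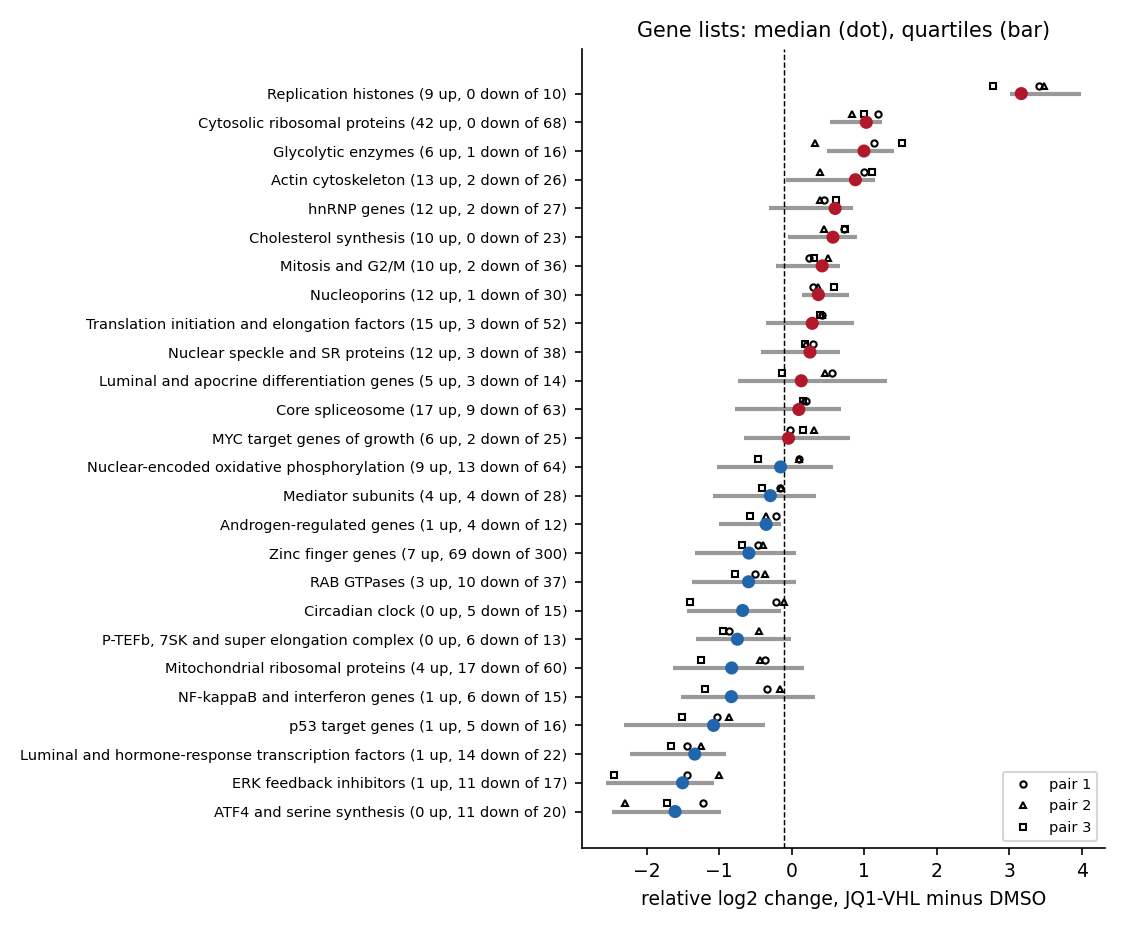
Relative log2 change of 26 gene lists (dot, median; bar, quartiles; open symbols, medians of the 3 same-numbered pairs), with the number of members called higher and lower of those tested. The dashed line is the median of all tested genes, -0.11; the lists run from -1.61 for ATF4 and serine synthesis to 3.16 for replication histones.

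The 300 zinc finger genes tested, most of which encode DNA-binding repressors or factors of unknown target, had 69 lower (23%, against 17.3% of all genes) and 7 higher, with a median of -0.59. The count of 69 was 102 without JQ1-VHL replicate 3, and 13, 5 and 10 without DMSO replicates 1, 2 and 3. ZNF444 had 5.85, 4.52 and 0 units under JQ1-VHL and 206, 115 and 73.8 under DMSO (-4.12 ± 0.79), while ZNF850, which overlaps ZNF567, was higher at 1.73. ZNF444 was not called without DMSO replicate 2 (adjusted p = 0.056), nor ZNF850 without DMSO replicate 2 or 3 (up to 0.0688). Of 64 oxidative phosphorylation genes 13 were lower (20.3%) and 9 higher (14.1%), and the median, -0.15, was near that of all genes. Against 17.3% lower and 15.7% higher among all genes, Mediator subunits had 4 lower and 4 higher of 28 (14.3% each) and solute carriers 29 and 24 of 155 (18.7 and 15.5%). Core spliceosome genes had 9 lower and 17 higher of 63 (14.3 and 27.0%), and histone acetylation and methylation enzymes 20 and 12 of 79 (25.3 and 15.2%). Leaving out DMSO replicate 2 took the sum of both directions to 2 Mediator, 4 spliceosome, 7 solute carrier and 1 histone enzyme gene. Single members still moved far in those lists. The glutamate transporter gene SLC1A7 had 18.1, 23.2 and 1.90 units under JQ1-VHL and 1748, 445 and 255 under DMSO (-4.12 ± 0.54), and the bile acid transporter gene SLC10A1 had 60.1, 98.2 and 10.5 under JQ1-VHL and 59.8, 12.3 and 8.93 under DMSO (2.72 ± 0.50). The SLC10A1 call was lost without DMSO replicate 2 (adjusted p = 0.0505).

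Replication histone genes had a median of 3.16, the highest of the lists with all libraries and whichever library was left out, and 1.45 on the ERCC scale. Of 70 listed genes, 11 were in the table and 10 passed the filter on low values. A gene high in 1 group passes it more readily, which limits the median and the counts. Of the 10 tested, 9 were higher (90%, against 15.7% of all genes) and 0 lower on the relative scale, 9 or 10 whichever library was left out. On the ERCC scale 2 were higher, H2BC5 and H3C12. These genes encode the core histones made in S phase, and their usual mRNA ends without a poly(A) tail, whereas the libraries were made from polyadenylated RNA. Which transcripts gave the reads is not known. H3C12, which overlaps H2AC17, had 899, 1391 and 234 units under JQ1-VHL and 188, 76.9 and 54.5 under DMSO (ERCC scale 2.83 ± 0.88, relative 4.58 ± 0.24), and the groups did not overlap. H2BC5 had 1399, 2193 and 276 units under JQ1-VHL and 291, 163 and 142 under DMSO (2.32 ± 0.84 and 4.08 ± 0.29), where JQ1-VHL replicate 3 lay below DMSO replicate 1. Its ERCC-scale call held in 1 of the 6 fits that left out a library, and its relative call in all of them. The list took 0.289, 0.329 and 0.141% of new nuclear RNA under JQ1-VHL and 0.029, 0.027 and 0.029% under DMSO.

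Promoters of histone genes that rose and of genes in the amino acid stress list that fell are shown side by side. These lists lie at the ends of the range with all libraries. Each run holds the 100 bases before and the 50 after the annotated start (RefSeq, GRCh38.p14), for the 3 called members of each list with the largest relative change that had an entry. CEBPG was not called without any one DMSO replicate. Capitals mark, on either strand, the TATA letters TATAAA, the NF-Y box CCAAT, the GC box GGGCGG, the ETS core CCGGAAG, the AP-1 site TGACTCA, the CRE letters TGACGTCA and the C/EBP-ATF element TGATGCAA, and H4C8 holds none of them in this stretch. The first 3 rose, H2BC5 (chr6:26158021-26158170, plus strand), H2BC4 (chr6:26123877-26124026, minus strand) and H4C8 (chr6:26285485-26285634, minus strand), and the last 3 fell, TRIB2 (chr2:12716836-12716985, plus strand), CEBPG (chr19:33373609-33373758, plus strand) and TRIB3 (chr20:381195-381344, plus strand).
H2BC5: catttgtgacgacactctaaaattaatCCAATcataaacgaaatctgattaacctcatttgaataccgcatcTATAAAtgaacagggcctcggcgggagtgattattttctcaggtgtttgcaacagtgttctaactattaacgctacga
H2BC4: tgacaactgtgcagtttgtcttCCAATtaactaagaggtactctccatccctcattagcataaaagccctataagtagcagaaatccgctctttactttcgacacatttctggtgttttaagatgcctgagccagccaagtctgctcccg
H4C8: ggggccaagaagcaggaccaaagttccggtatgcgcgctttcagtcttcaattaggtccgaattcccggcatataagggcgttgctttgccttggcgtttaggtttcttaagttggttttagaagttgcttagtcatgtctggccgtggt
TRIB2: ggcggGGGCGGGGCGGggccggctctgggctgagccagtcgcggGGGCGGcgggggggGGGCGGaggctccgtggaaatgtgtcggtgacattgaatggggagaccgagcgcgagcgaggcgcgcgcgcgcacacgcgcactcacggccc
CEBPG: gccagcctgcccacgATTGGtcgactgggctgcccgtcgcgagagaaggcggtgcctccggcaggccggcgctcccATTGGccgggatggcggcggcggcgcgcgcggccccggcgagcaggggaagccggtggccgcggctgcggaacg
TRIB3: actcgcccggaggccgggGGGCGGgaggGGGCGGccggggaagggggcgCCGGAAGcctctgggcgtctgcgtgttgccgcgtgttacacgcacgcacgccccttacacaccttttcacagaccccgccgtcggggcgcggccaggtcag

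Over the full windows of 300 bases, TATAAA stood in 6 of the 9 replication histone promoters with an entry and CCAAT in 7 of them. Of 7974 tested genes with an entry, 4.75% held TATAAA and 37.7% held the NF-Y box. The TATA letters stood in 14.4% (15) of the 104 promoters of genes called higher by at least 2 log2 units. They stood in 3.81% of the 499 promoters of genes called lower by as much. Among all 1239 higher and 1390 lower promoters the shares were 6.54% and 3.67%. Replication histone genes had a lower quartile of relative change of 3.01, so histone promoters are part of the 104. No value for the 104 was taken without them. GGGCGG stood in 53.9% of the 104 promoters and 68.7% of the 499, and in 71.7% of all tested. The C/EBP-ATF element TGATGCAA stood in 1 of 15 promoters of the amino acid stress list and in 0.464% of all tested. The CpG ratio, observed over expected CG pairs, had a median of 0.729 in the 104, 0.816 in the 499 and 0.856 in all tested promoters. These are matches of letters, with no measure of binding, and a TATAAA match on either strand need not be a TATA box.

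Several genes with few reads in DMSO nuclei rose under JQ1-VHL. TEX14, needed for the bridges between male germ cells (chromosome 17, 58556678 to 58692055, minus strand), had 94.7, 132 and 38.5 units under JQ1-VHL and 9.83, 4.49 and 1.88 under DMSO (relative 5.41 ± 0.35, adjusted p = 0.00047). NUP210L, a testis gene akin to a nuclear pore protein, had 174, 317 and 53.2 units under JQ1-VHL and 50.8, 6.74 and 3.29 under DMSO (5.27 ± 0.57). The groups did not overlap in either gene, and both were kept in every relative fit. Of 47 listed germ-cell genes 14 passed the filter on low values. A gene high in 1 group passes it more readily, so no count of changes over them is given. TSSK3, a kinase gene of the same list that overlaps FAM229A, was lower at -1.73. NIM1K, an AMPK-related kinase gene, had 148, 194 and 28.03 units under JQ1-VHL and 26.2, 6.17 and 7.52 under DMSO (4.66 ± 0.38). LHFPL4, a gene of inhibitory synapses, had 42.0, 45.2 and 6.65 units under JQ1-VHL and 0.819, 2.25 and 1.88 under DMSO. HCLS1, a cortactin relative of blood cells, had 43.6, 62.0 and 13.8 under JQ1-VHL and 2.46, 2.81 and 4.70 under DMSO. The growth factor gene FGF18 (4.41) and the channel gene TMC2 (4.39) followed, with 14.3 to 76.8 and 21.9 to 66.5 units under JQ1-VHL and 0.941 to 11.5 and 2.25 to 6.55 under DMSO.

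Several of the highest changes sit on a neighbour or a copy, and with no strand given for the counting their reads cannot be assigned to 1 gene. GRAPL, with a near copy GRAP, had 81.9, 81.4 and 13.3 units under JQ1-VHL and 0, 3.93 and 0 under DMSO (5.76 ± 0.64). TRIM59, which overlaps SMC4, stood at 5.57, and NFE2L3, which overlaps HNRNPA2B1, had 938, 1488 and 158 units under JQ1-VHL and 131, 66.2 and 52.7 under DMSO (4.70 ± 0.34). KANK3 overlaps RPS28, IDI2 overlaps GTPBP4 and IDI2-AS1, and GUCY2C-AS1 overlaps GUCY2C. Their relative changes were 4.70, 4.58 and 4.49. Of 20 genes of the NRF2 list 5 were higher (25%, against 15.7% of all genes) and 6 lower (30%, against 17.3%), with a median of -0.09. The count of 6 lower was 3, 1 and 1 without DMSO replicates 1, 2 and 3. The factor gene NFE2L2 itself, which overlaps AGPS, was higher at 2.17, and among its targets SLC7A11 (-2.44, adjusted p = 0.028) and GCLM (-1.91, adjusted p = 0.028) were lower. Both were lost without DMSO replicate 2 or 3, SLC7A11 also without JQ1-VHL replicate 1 or 2 and GCLM without DMSO replicate 1, with adjusted p of up to 0.106 and 0.109.

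The size of a change went with the level and the span of a gene. In quintiles of the tested genes by mean rescaled units in the 6 libraries, the median relative change was -0.73, -0.63, -0.35, 0.03 and 0.69, with 5.79% called higher in the lowest quintile and 43.6% in the highest. The highest quintile held 76.5% of the reads under JQ1-VHL and 62.9% under DMSO. By span in the annotation the medians were -0.64 for the shortest quintile (up to 12.8 kb), then -0.37, -0.09 and 0.02, and 0.26 for the longest (from 97.9 kb). The order from shortest to longest held in each same-numbered pair. Within the 3 lower quintiles of level the shortest genes stood at -1.18, -1.11 and -0.81 and the longest at -0.34, -0.16 and 0.08. In the highest quintile of level they were close, at 0.71 and 0.79. Across genes Spearman's rho with the relative change was 0.416 for level and 0.225 for span, over genes that share the same 6 libraries and are not independent. Level includes the JQ1-VHL values that enter the change, so a gene that rises also gains level. Level in the cytoplasm of DMSO cells, from other libraries, gave 0.343. Its quintiles, from lowest to highest, had medians of -0.52, -0.68, -0.43, -0.02 and 0.60. Level, span, mature RNA and the number of intervals counted per gene move together here (rho 0.221 for intervals), and their part in the result was not tested.

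**Figure D4:**
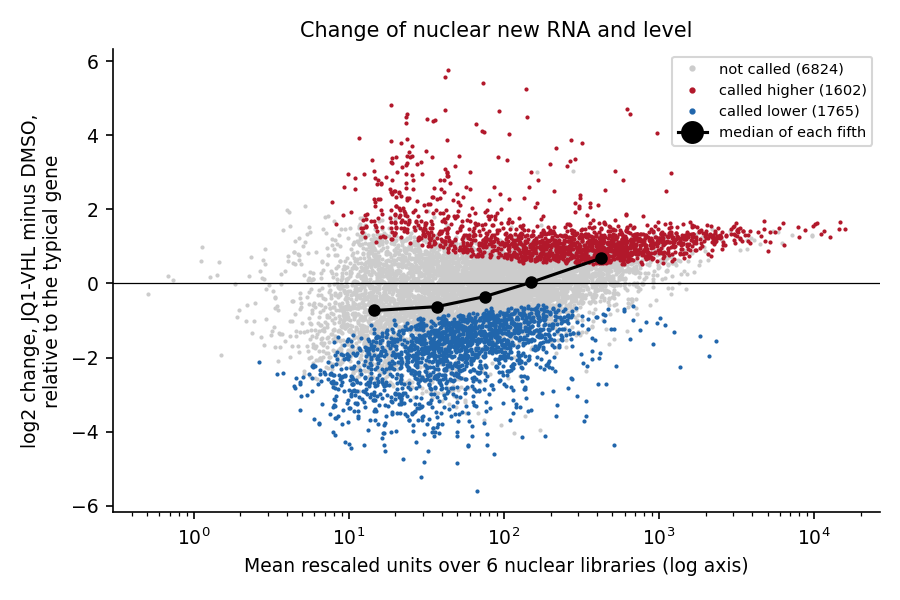
Relative log2 change of each of 10191 genes against its mean rescaled units in the 6 nuclear libraries (log axis), with 1602 genes called higher, 1765 called lower and the median of each quintile joined by a line. The medians run from -0.73 in the lowest quintile to 0.69 in the highest.

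**Figure D5:**
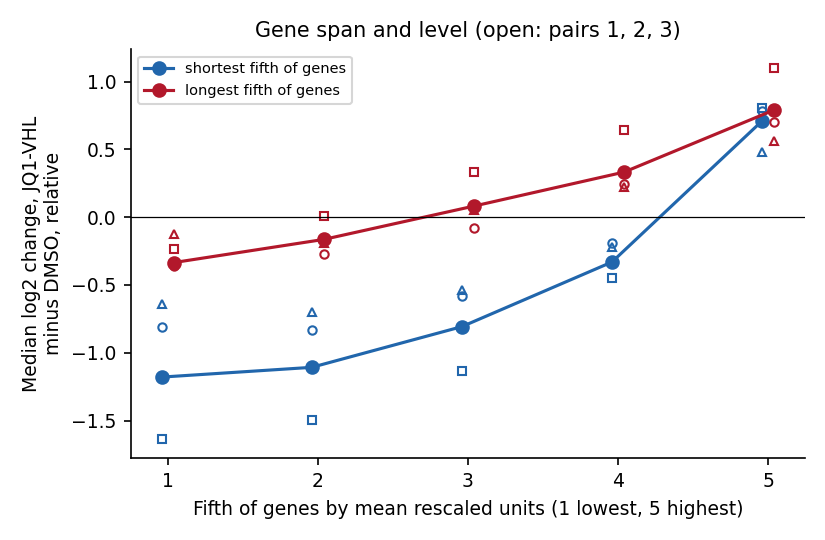
Median relative log2 change of the shortest and the longest quintile of genes within each quintile of level; filled points are the fit and open symbols the 3 same-numbered pairs. The shortest genes lie below the longest in the 4 lower quintiles of level and near them in the highest, at 0.71 and 0.79.

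Against the cytoplasm of the same treatment, the test of the difference between the nuclear and the cytoplasmic change called 39 genes higher (0.383%) and 16 lower (0.157%), with 1521 at an unadjusted p under 0.05. Against total RNA it called 0 genes in either direction (0%) by limma, with 815 at an unadjusted p under 0.05. Genes that fell in the nucleus and not in the cytoplasm included DNPEP, an aspartyl aminopeptidase gene, with relative changes of -3.09 in nuclear and 0.13 in cytoplasmic RNA, and NELFCD, a subunit of the pausing factor NELF, with -2.71 and 0.57. In the other direction BCL2L11, the proapoptotic gene BIM, which overlaps MIR4435-2HG, stood at -0.04 in nuclear and -3.81 in cytoplasmic RNA, and the elongation factor gene ELOF1 at 1.32 and -2.65. These calls were few and moved with single libraries. The count of 55 was 12, 9 and 139 without JQ1-VHL nuclear replicates 1, 2 and 3, and 11, 4 and 8 without DMSO nuclear replicates 1, 2 and 3. It was 18 and 5 without DMSO cytoplasmic replicates 1 and 2, and 0 on the ERCC scale. The count of 0 against total RNA was 108 without JQ1-VHL nuclear replicate 3. The median of replication histones was 3.16 in nuclear RNA, against 2.67 in total RNA and 1.40 in cytoplasmic RNA. That of KLF and SP factors was 0.02, -0.98 and -2.35. Differences between these medians were not tested.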

How the data were processed

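The authors deposited 1 table of T-to-C read counts divided by 1 ERCC factor per library, recorded here as signal, for 98665 intervals named by gene. Per the submitters' processing notes, the tools included HISAT2, HTSeq, DESeq2, Trimmomatic 0.39 and bcl2fastq. Those notes name dm3, hg19 and GRCh37 as builds, with no role or order. How T-to-C reads were called, the strand counted and any filter are not given in the sources used here. The libraries were 150 bp read pairs of polyadenylated RNA, per the labels' protocols. What an interval spans is not given either, and a fragment counted in several intervals of a gene would add each time.

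Intervals were summed per Ensembl ID. In each library 100% of values were a whole multiple of the smallest value within 0.01, so whole reads were recovered. One read was worth 0.470 to 0.819 units in the nuclear libraries. Names came from a gene table (12512 of 12755 IDs) and coordinates and overlaps from GENCODE 29 (GRCh38, not the authors' build). Main tests were limma 3.58.1 (trend and robust) on log2(value + 1), which understates the change of low genes: on the ERCC scale with all 18 libraries in 6 groups, and relative to the typical gene on the 6 nuclear libraries after division by median-of-ratios factors (0.687, 0.937 and 0.248 for JQ1-VHL, 3.15, 1.49 and 1.34 for DMSO). In the ERCC fit the variance of a gene is treated as known, so its calls carry more certainty than 3 libraries can give. edgeR 4.0.16 and DESeq2 1.42.0 on recovered reads, other pseudocounts, filters, factors, a replicate block and leaving out libraries were alternatives. The fits were tested on simulated data.

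The comparison, gene lists and rules were chosen with earlier results of these data known. Genes were named by a rule: at least 100 reads in the nuclear libraries, and the 15 lowest and highest relative and 10 lowest and highest ERCC-scale calls, the extremes of each list, BET and marker genes, the 10 with most DMSO reads, 5 each way against another fraction, and those at 0 in a group. A few genes that the rule names are not reported here. Further members of the luminal factor, ERK, ATF4 and histone lists were named after their values were seen. The pairing of libraries comes from the labels' batch number, equal to the replicate number. Deviations of same-numbered nuclear libraries correlated at 0.27, -0.14 and 0.29, and pair 2 thus did not deviate together. Libraries of unlike number ran from -0.37 to 0.30, with JQ1-VHL replicate 2 and DMSO replicate 1 the highest. The correlations thus do not set the same-numbered pairs apart from other pairs.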

Additional observations from a re-analysis of the deposited data

Results flagged for a closer look

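Limma's test of the difference called 55 genes whose JQ1-VHL effect differed between nuclear and cytoplasmic RNA. For 9 of those with the lowest and highest values the difference is given here as the nuclear minus the cytoplasmic log2 change. It was -3.61 for MAB21L4, -3.22 for DNPEP, -3.27 for NELFCD and -3.09 for INPP5J, with adjusted p of 0.0081 to 0.043. In 5 genes it was positive, at 3.77 for BCL2L11, 4.47 for YWHAH, 3.97 for ELOF1, 4.11 for ZNF689 and 3.78 for ACOT13, with adjusted p of 0.025 to 0.043. BCL2L11, YWHAH, ZNF689 and ACOT13 overlap other genes. On the ERCC scale none of the 9 was called by limma.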

How the results depend on the processing

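The sum ratio and the median change kept their direction under every alternative run, at 0.352 to 0.590 and -2.33 to -1.37. The ERCC-scale count of 3453 was 2097 with the interval of highest mean, 5573 with DESeq2 and 5365 with the nuclear libraries alone, and 239 to 4150 without 1 library. The relative count of 3367 was 5365 on the ERCC scale of the same libraries (31 higher, 5334 lower) and 709 to 5186 without 1 library. edgeR on the recovered reads called 4530 genes on the ERCC scale (34 higher, 4496 lower) and 3846 relative to the typical gene (1871 higher, 1975 lower). With the replicate block the counts were 4264 and 4125. The count of 55 against the cytoplasm was 0 on the ERCC scale, 72 with the replicate block and 4 to 139 without 1 library. The count of 0 against total RNA was 1 with the replicate block and 0 to 108 without 1 library. PBRM1, relative to the typical gene, reversed to -0.54 with the interval of highest mean, and the cause was not tested. The low number of T-to-C reads in JQ1-VHL replicate 3 limits calls of genes with few reads, where 1 read is a visible step.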
